A study of Mus musculus with 4 samples.

Results

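Disease-associated microglia are a state of the brain's resident macrophages that was described around amyloid plaques, in ageing and in demyelinated tissue. Cells in this state turn down genes of resting microglia, such as the purinergic receptor gene P2ry12, and turn on genes for lipid uptake, lysosomal digestion and secreted factors. The receptor encoded by Trem2, which binds lipids and lipoproteins and signals through the adaptor encoded by Tyrobp, is known to be needed for the full state. In these data the state was defined by a gate on unique molecular identifiers (UMIs, 1 per captured RNA molecule). A barcode counted as microglial with 3 or more UMIs summed over P2ry12, Tmem119, Siglech and Gpr34. It entered the gate with 4 or more UMIs summed over Cst7, Lpl, Spp1, Gpnmb and Itgax. It also had to hold at most 2 UMIs of Mrc1, Pf4 and Cbr2 (border macrophages), none of Hmga2, at most 2 of Mog and Mag (oligodendrocytes), at most 2 of Slc1a2 and Aqp4 (astrocytes) and at most 1 of Cldn5 (endothelium). Of 13665 microglial barcodes, 392 passed. These values chose the barcodes, so the levels of the 18 genes are given as a description.

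The barcodes came from C57BL/6 mice aged 8 weeks (young) or 93 weeks (old). A brain hemisphere was injected with PBS (sham) or with 1000 cells of the mouse glioma line CT2A-GFP-luc (tumour). After 2 weeks the opposite, uninjected hemisphere was dissociated with an enzymatic kit and run on a droplet platform that counts the 3' ends of RNA. Each of the 4 groups was 1 library and the number of mice behind it is not given, so differences between libraries carry no replicate check and no test, and their intervals are 95% intervals of counting error only. UMIs of 1 barcode are not independent draws, so these intervals are too narrow where few barcodes hold a gene, and that share is given for the genes concerned. The libraries held 10665 to 12070 barcodes and 62726818 to 76652484 UMIs. No gated barcode sequence occurred in more than 1 library, while 27 to 53 barcodes of any kind were shared by each pair of libraries. Lists of 4 values below follow the order young sham, young tumour, then old sham and old tumour. CPM is the count of a gene's UMIs scaled to 1000000 UMIs of the summed class.

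The 5 gate genes encode a cysteine protease inhibitor (Cst7), the lipase that frees fatty acids from lipoproteins (Lpl), the secreted phosphoprotein osteopontin (Spp1), a transmembrane glycoprotein of lysosomes (Gpnmb) and the integrin chain CD11c (Itgax). Their promoters are shown because these genes define the cells. Each window runs from 250 bases before to 50 bases after a transcription start in RefSeq (build GRCm38.p6), 5' to 3' on the gene's strand. Capitals mark matches, on either strand, to the AP-1 motif TGANTCA, the E-box CACGTG or the PU.1 motif GAGGAAGT. The windows lie at chr2:150570165-150570464, plus strand (Cst7), chr6:49036268-49036567, plus strand (Gpnmb), chr7:128129300-128129599, plus strand (Itgax) and chr5:104434861-104435160, plus strand (Spp1, the more upstream of its starts in the table). Lpl had no entry in the table.
Cst7: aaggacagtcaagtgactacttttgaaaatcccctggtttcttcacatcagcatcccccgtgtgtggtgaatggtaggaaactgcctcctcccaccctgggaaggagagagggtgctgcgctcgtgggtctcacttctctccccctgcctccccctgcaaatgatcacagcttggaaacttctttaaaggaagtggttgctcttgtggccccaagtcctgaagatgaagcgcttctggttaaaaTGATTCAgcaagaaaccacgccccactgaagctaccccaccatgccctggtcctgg
Gpnmb: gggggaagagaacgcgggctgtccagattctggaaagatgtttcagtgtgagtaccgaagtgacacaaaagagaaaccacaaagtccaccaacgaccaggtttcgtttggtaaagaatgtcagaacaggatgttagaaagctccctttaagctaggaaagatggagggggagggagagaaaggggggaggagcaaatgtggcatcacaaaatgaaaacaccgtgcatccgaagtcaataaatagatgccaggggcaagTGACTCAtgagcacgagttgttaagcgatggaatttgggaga
Itgax: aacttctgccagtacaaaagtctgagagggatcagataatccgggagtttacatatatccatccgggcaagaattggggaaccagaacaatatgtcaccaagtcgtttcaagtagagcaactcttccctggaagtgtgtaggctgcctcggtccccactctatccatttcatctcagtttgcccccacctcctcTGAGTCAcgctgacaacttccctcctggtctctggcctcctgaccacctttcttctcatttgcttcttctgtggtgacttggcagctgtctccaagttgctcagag
Spp1: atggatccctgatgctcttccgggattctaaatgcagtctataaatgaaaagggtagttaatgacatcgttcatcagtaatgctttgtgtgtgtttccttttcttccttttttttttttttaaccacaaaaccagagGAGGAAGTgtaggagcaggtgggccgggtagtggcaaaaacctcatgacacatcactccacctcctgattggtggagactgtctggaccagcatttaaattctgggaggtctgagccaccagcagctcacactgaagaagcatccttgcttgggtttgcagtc
The Cst7, Gpnmb and Itgax windows each held an AP-1 match and the Spp1 window a PU.1 match. Of 17 gate and described genes looked up, 13 had an entry and 5 of these held an AP-1 match (Cst7, Gpnmb, Itgax, Igf1 and Cybb). The motif stood in 7.81% of all 32851 windows in the table. It stood in 7.46% of windows of genes higher in gated barcodes, 5.08% of windows of genes lower in them and 4.79% of windows of all genes tested in the comparison described below. The E-box stood in 7.15% and the PU.1 motif in 3.20% of all windows. No matches overlapped in the 4 windows shown. A match is a run of letters and not a bound site.

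The label was checked against genes that microglia carry in any state and that the gate did not use (9 genes, among them C1qa, C1qb, C1qc, Tyrobp, Ctss, Csf1r, Cx3cr1 and Fcer1g). Whether these 9 genes set microglia apart from border macrophages or monocytes was not tested, and markers of those cells are given below. In 356 of the 392 gated barcodes these 9 genes made up 1% or more of the UMIs. In the other 36 they made up less, with medians of 0.0122%, 0.0364%, 0.00996% and 0.0100% against 4.05%, 5.34%, 4.82% and 5.08% over all gated barcodes. The 36 numbered 13, 7, 7 and 9 by library. They were deep, with medians of 37964, 17642, 24263 and 31160 UMIs against 5752, 10210, 8195 and 8817 in the 356. They held 70.3%, 11.8%, 17.3% and 22.3% of all gated UMIs. Spp1 was the leading gate gene in most of them (13, 4, 6 and 9). A set of fibroblast genes summed to 2180, 2017, 4391 and 1836 CPM in them and to 629, 310.3, 22.1 and 117 CPM in the 356, against 65.5, 55.2, 53.3 and 76.7 CPM in other microglia at 1% or more. The 356 of the young libraries and of old tumour thus still held more of these genes than other microglia, and those of old sham less. The 36 were not all alike: 12 lymphocyte markers summed to 7.59, 3433, 52.7 and 2.81 CPM in them. Cst7 was held by 0, 3, 0 and 0 of the 36. In these 36 barcodes the data go against the label, and the young sham sum was mostly their RNA. Results are therefore given for the 356 barcodes, with the value for all 392 where it differs in call or by over 1.5 times. The 1% line was set after the values were seen, and 2, 4, 0 and 5 gated barcodes lay within a factor of 2 of it.

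**Figure D1:**
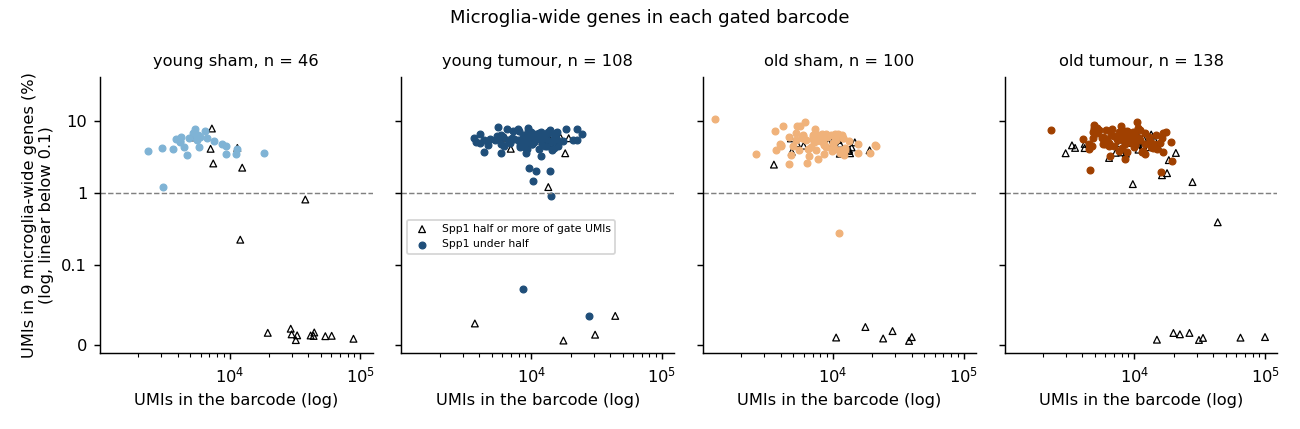
Each point is 1 gated barcode, with its UMIs on a log x axis and the percent of UMIs in 9 microglia-wide genes on a y axis that is log above 0.1 and linear below; triangles are barcodes with 50% or more of their gate UMIs in Spp1, and the dashed line is at 1%. The 356 barcodes above the line form 1 cloud near 5%, and most of the 36 below it lie near 0 at high UMI counts.

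The gated share of microglia was lowest in young sham and highest in old tumour. It was 1.04% (0.765 to 1.39) in young sham (46 of 4406), 3.04% (2.50 to 3.65) in young tumour (108 of 3557), 3.51% (2.87 to 4.26) in old sham (100 of 2846) and 4.83% (4.07 to 5.68) in old tumour (138 of 2856), with exact Clopper-Pearson intervals. The share was 3.37 (2.35 to 4.88) times as high in old as in young sham and 1.59 (1.23 to 2.07) times as high in old as in young tumour. It was 2.91 (2.04 to 4.20) times as high with tumour as with sham in young mice and 1.38 (1.06 to 1.80) times in old mice. The interval of old sham overlaps those of both tumour libraries, and that of young sham overlaps none. Without the 36 barcodes (and microglia of the same kind) the shares were 0.770% (0.531 to 1.08), 2.97% (2.42 to 3.59), 3.33% (2.70 to 4.07) and 4.68% (3.92 to 5.53), in the same order.

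Depth and the exclusions both bear on these shares. Gated barcodes were deeper than other microglia, with medians of 7415, 10277.5, 8542 and 9277.5 UMIs against 3664, 3196, 4936.5 and 4627. With every microglial barcode thinned to 2000 UMIs, 8, 11, 13 and 29 barcodes met the gate, or 0.206%, 0.383%, 0.524% and 1.19%. Thinning left out 355, 318, 146 and 164 shallower microglia, and 172, 369, 219 and 261 more fell under 3 microglial UMIs. The ratio of young tumour to young sham was then 1.86 (0.681 to 5.32) and that of old to young sham 2.54 (0.976 to 7.07), both with intervals that include 1. Old to young tumour was 3.11 (1.51 to 6.91) and old tumour to old sham 2.28 (1.15 to 4.77). At a thinned gate sum of 2 or more the shares were 0.954%, 1.64%, 2.02% and 3.13%, and the ratio of young tumour to young sham was 1.72 (1.09 to 2.72). Without the exclusions the young tumour share was 5.17% (4.47 to 5.95) beside 5.53% (4.72 to 6.43) in old tumour. Of the barcodes lost to the exclusions, 48 in young tumour carried Hmga2, against 0, 1 and 0 in young sham, old sham and old tumour. Barcodes with the highest doublet scores made up 10.9%, 15.7%, 5% and 5.07% of gated barcodes and 5.58%, 3.71%, 1.93% and 3.05% of other microglia; without them the order of the 4 shares was the same. Barcodes just inside the gate, at a sum of 4, numbered 7, 19, 23 and 18, and those just outside, at 3, numbered 20, 31, 39 and 33. Cells that should lack the gate genes gave the background: a gate sum of 4 or more was reached by 0.0755% to 1.37% of barcodes with oligodendrocyte, astrocyte or endothelial markers, whose median depths ran from 3505 to 6686.5 UMIs. These barcodes had under 3 microglial UMIs and no Hmga2, and were not held to the other exclusions. The young sham share lay within that range, and the shares of the other libraries lay above it. In young sham alone the range was 0.283% to 0.984%, its top with an interval of 0.552 to 1.62 that overlapped that of the gated share (0.765 to 1.39). Thinned to 2000 UMIs the background ran from 0% to 0.264%, and the thinned young sham share of 0.206% lay within it. The other thinned shares lay above it, but intervals overlapped in young tumour and old sham. In young tumour the endothelial background was 0.264% (0.0544 to 0.769) beside a share of 0.383% (0.191 to 0.685). In old sham it was 0.242% (0.0293 to 0.872) beside 0.524% (0.279 to 0.894).

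**Figure D2:**
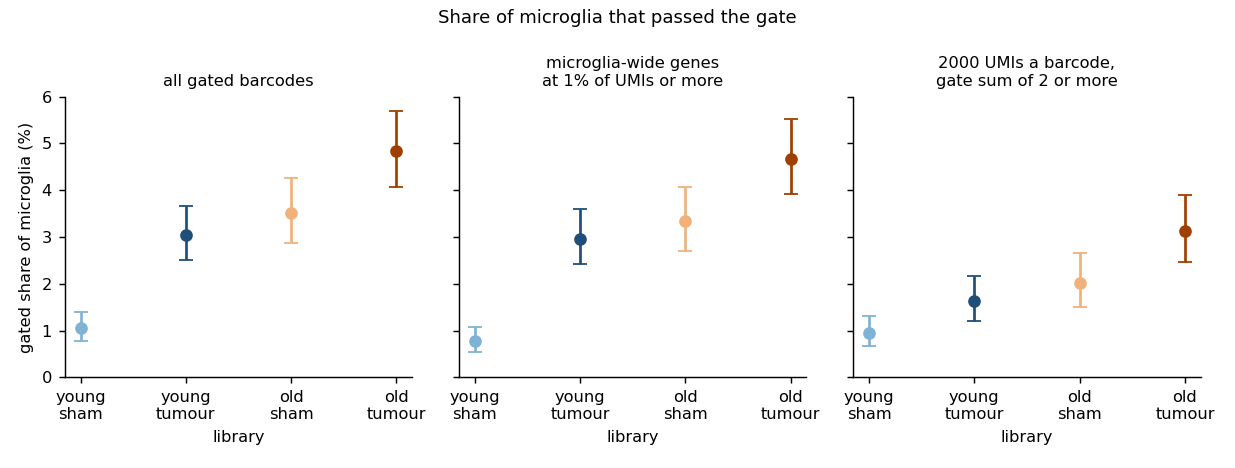
Points are the gated share of microglia in each library (y axis, percent) and bars are exact 95% intervals of counting error, for all gated barcodes, for barcodes with 1% or more of UMIs in microglia-wide genes, and after thinning to 2000 UMIs with a gate sum of 2 or more. Old tumour is highest and young sham lowest in each panel, and the gap between young sham and young tumour is narrower after thinning.

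Among the gate genes, Spp1 supplied the largest share of UMIs, from few barcodes. In the 356 it held 44.6%, 42.2%, 63.8% and 65.6% of the gate UMIs, and in young tumour Cst7 came close with 40%. In all 392 Spp1 held 66.8%, 42.8%, 64.8% and 66.5%, and 60.0% of its young sham UMIs came from barcodes under the 1% line. In each library of the 356, 5 barcodes held 94.8%, 68.5%, 83.9% and 78.4% of its UMIs. A single old tumour barcode held 1698 Spp1 UMIs and a single old sham barcode 1418. Cst7 was found in 42.4%, 84.2%, 86% and 80.6% of the 356 barcodes and Lpl in 81.8%, 41.6%, 65.6% and 75.2%. Itgax was found in 48.5%, 38.6%, 50.5% and 46.5% and Gpnmb in 6.06%, 24.8%, 7.53% and 6.20%, so Gpnmb was the rarest of the 5 and most frequent in young tumour. The libraries differed in which gene led. Cst7 had the most gate UMIs in 59.4% (49.2 to 69.1) of young tumour barcodes, against 24.2%, 37.6% and 33.3% in young sham, old sham and old tumour. Lpl led in 6.93% of young tumour barcodes and in 45.5%, 31.2% and 32.6% of the others. The 4 microglial genes of the rule were lower in gated barcodes, at 2462, 1296, 1849 and 1994 CPM together in the 356 against 7296, 6526, 5140 and 6136 CPM in other microglia. In all 392 they stood at 839, 1173, 1555 and 1588 CPM. P2ry12 alone stood at 701, 330.5, 474 and 504 CPM in the 356 and at 236, 295, 392 and 395 CPM in the 392.

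Which other genes separated gated barcodes from the remaining microglia was asked within each library, with the 4 libraries as replicates and the 18 genes of the rule left out (edgeR quasi-likelihood test on counts summed per library and class, library as a block, Benjamini-Hochberg adjustment over all genes tested). In the 356 barcodes, 1494 of 11352 genes were higher (13.2%) and 1384 lower (12.2%) at an adjusted p under 0.05. DESeq2 called 1359 higher and 684 lower in the same sums. In all 392, 2136 of 12021 were higher (17.8%) and 1556 lower (12.9%) by edgeR. The fits shared 978 higher genes, which is 65.5% of those of the 356 and 45.8% of those of the 392, and 1066 lower genes. Fold changes from the fit are scaled by edgeR's normalization factors and can differ from the ratio of the printed CPM. Gated and other barcodes differed in depth in each library; among barcodes of 5000 to 20000 UMIs (gated by the full rule), 1181 genes were higher and 669 lower. With every barcode thinned to 2000 UMIs, which left 8 to 29 gated barcodes per library, 50 were higher and 121 lower. The genes named below for the size of their change were called in the 356. They also had the same direction in 4 of 4 libraries and at least 50 CPM in the higher class. Of these, the 15 with the largest rise and the 15 with the largest fall kept their call when any 1 library was left out. That choice favours genes that keep their call. Prg4, outside it with a log2 fold change of 3.50, lost its call without old tumour.

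Several genes of lipid transport and metabolism rose. Apoe, which encodes the lipoprotein that carries cholesterol out of cells, was the most abundant, at 20732, 45209, 25439 and 35422 CPM in the gated barcodes and 1218, 6193, 2760 and 3564 CPM in the other microglia. Its 4 gated values lay above its 4 other values (log2 fold change 3.63, SE 0.20, adjusted p = 2.43e-10), although a single barcode held 45.4% of its UMIs in young sham. Ch25h, which makes the oxysterol 25-hydroxycholesterol, had the largest rise of the 15, at 62.9, 24.7, 74.9 and 91.3 CPM in the gated barcodes and 0.284, 1.86, 0.582 and 0.554 CPM in the other microglia (log2 fold change 6.46, SE 0.43, adjusted p = 2.83e-09). It was held by 3, 12, 11 and 23 gated barcodes, so few cells carried it. Fabp5, a fatty acid chaperone, stood at 489.8, 737, 312 and 353 CPM in the gated barcodes and 17.4, 37, 21.3 and 18.7 CPM in the other microglia, with no overlap (log2 fold change 4.57, SE 0.15, adjusted p = 2.93e-13). Apoc1, a small apolipoprotein, rose with a wide spread, at 709.9, 51.3, 25.8 and 8.89 CPM in the gated barcodes and 0.711, 5.97, 1.58 and 1.57 CPM in the other microglia (log2 fold change 5.40, SE 0.75, adjusted p = 2.73e-05), and 1 young sham barcode held 97.5% of its UMIs there. Of 22 tested lipid genes 13 rose and 2 fell, with a median log2 fold change of 0.98 against -0.10 over all genes tested. Of the 13, 11 kept their call when any 1 library was left out. Plin2, which coats lipid droplets (log2 fold change 2.19), Cd36, a fatty acid and scavenger receptor (4.59), and Fabp3 (3.07) were among the risers, and Mgll, a monoglyceride lipase (-1.38), and Lpcat2 (-0.73) fell. In all 392, 11 of 24 rose and 3 fell. Thinned to 2000 UMIs 2 of 17 rose with a median of -0.10. Over all genes tested in the thinned fit, 50 of 9417 were higher and the median was -0.65. The shares called higher among all genes tested were 13.2% in the 356 and 17.8% in the 392.

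**Figure D3:**
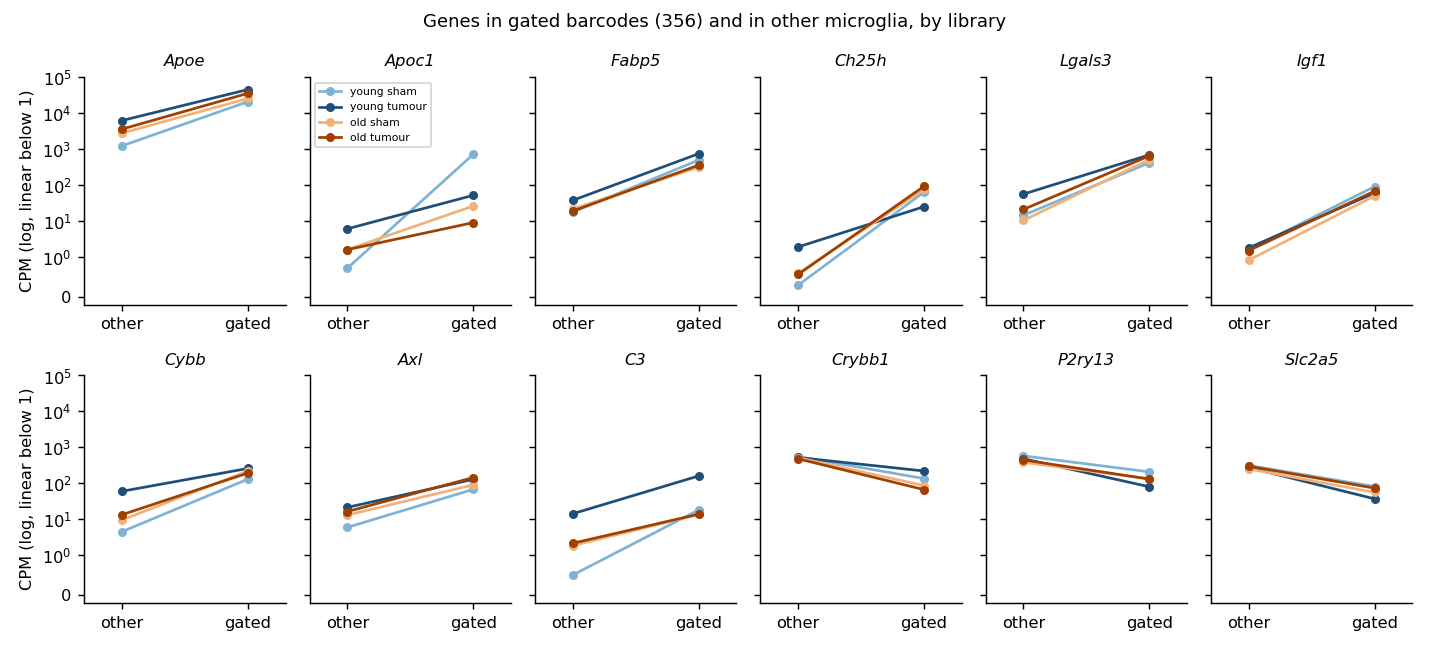
Each line joins the level of a gene in other microglia to that in the gated barcodes of the same library (y axis, CPM, log above 1 and linear below), for 356 gated barcodes and 12 genes. The 9 genes from Apoe to C3 rise in 4 of 4 libraries and Crybb1, P2ry13 and Slc2a5 fall in 4 of 4.

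Other genes reported for the disease-associated state moved with the gate. Of 13 tested genes of its late, Trem2-dependent stage 12 rose and none fell (median log2 fold change 2.01), and of 7 genes of its early stage 7 were called higher (median 1.45), counting Tyrobp, which had helped to choose the 356. When any 1 library was left out, 11 of the 12 and 7 of the 7 kept their call. In all 392 barcodes 10 of 13 and 4 of 7 rose, with medians of 1.48 and 0.90. Both lists were drawn from published accounts of the state that the gate genes also define. Igf1, a growth factor, stood at 89.9, 59.5, 49.1 and 67.1 CPM in the gated barcodes and 1.56, 1.76, 0.914 and 1.48 CPM in the other microglia, without overlap (log2 fold change 5.77, SE 0.24, adjusted p = 6.25e-12), in 15.2%, 24.8%, 19.4% and 22.5% of gated barcodes. Csf1, the growth factor for microglia themselves, stood at 229, 71.4, 512 and 174 CPM in the gated barcodes and 21, 15.9, 80.1 and 32.5 CPM in the other microglia (log2 fold change 2.91, SE 0.15, adjusted p = 9.12e-11). Its gated value was higher in each library, but the classes overlapped, since gated barcodes of young tumour held less than other microglia of old sham. Among receptors, Axl, which takes up dying cells, stood at 67.4, 128, 89.6 and 144 CPM in the gated barcodes and 5.90, 21.3, 13 and 16.3 CPM in the other microglia (log2 fold change 3.22, SE 0.15, adjusted p = 1.51e-11). Lilrb4a, an inhibitory receptor of myeloid cells, stood at 126, 99.8, 149 and 108 CPM in the gated barcodes and 3.77, 11.1, 7.48 and 7.57 CPM in the other microglia (log2 fold change 4.25, SE 0.19, adjusted p = 1.33e-11). Trem2 itself did not pass the test, at 3136, 2239, 3481 and 3967 CPM in the gated barcodes and 3119, 2880, 2662 and 3120 CPM in the other microglia (log2 fold change 0.36, SE 0.15, adjusted p = 0.095), and its classes overlapped. Tyrobp, its adaptor, is one of the 9 genes that chose the 356, so its value there (log2 fold change 0.76) is a description; it did not pass in the 392 (0.11, edgeR adjusted p = 0.83). Of 14 genes of Trem2 signalling 3 rose and 5 fell in the 356: Ms4a7, a membrane protein also carried by border macrophages (2.85), and Ms4a6c (1.58) rose, Tyrobp was counted among the 3, and Cd33, an inhibitory sialic acid receptor (-1.01), and Inpp5d, a lipid phosphatase (-0.83), fell with Lyn, Ms4a6b and Syk. Ms4a6b lost its call without young sham, old sham or old tumour, and Syk without old sham or old tumour. In the 392, 2 rose and 6 fell. Over all genes tested, 13.2% were higher and 12.2% lower in the 356, and 17.8% and 12.9% in the 392.

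Lysosomal genes rose in part. Of 34 tested genes of lysosomes and phagocytosis 22 rose and 2 fell in the 356 (median log2 fold change 0.64), whereas 7 rose and 3 fell in the 392 (median 0.22). Of the 22, 19 kept their call without any 1 library. The shares over all genes tested were 13.2% higher and 12.2% lower in the 356, and 17.8% and 12.9% in the 392. Lgals3, the galactose-binding lectin galectin-3 that marks damaged lysosomes, stood at 413, 685, 507 and 643 CPM in the gated barcodes and 14.2, 55.2, 10.2 and 20.7 CPM in the other microglia, with no overlap (log2 fold change 5.0, SE 0.22, adjusted p = 1.33e-11). Cd63, a tetraspanin of late endosomes, stood at 2377, 1918, 2071.5 and 2329 CPM in the gated barcodes and 567, 568, 669 and 789.9 CPM in the other microglia, also without overlap (log2 fold change 2.01). The protease genes Ctsb (1.45) and Ctsz (1.22) and the lysosomal alpha-galactosidase gene Gla (3.11) rose. Mertk, a receptor for dying cells that is high in resting microglia (-0.84), and Tfe3, a regulator of lysosomal genes (-0.53), fell.

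Most genes of resting microglia fell. Of 25 tested, 23 (Csf1r and Cx3cr1 of the 9 genes among them) fell and none rose in the 356 (median log2 fold change -0.89), and 24 fell in the 392 (median -1.44). Among all genes tested, 12.2% fell in the 356 and 12.9% in the 392. Slc2a5, the fructose transporter gene, stood at 80.9, 36.6, 55.3 and 72.7 CPM in the gated barcodes and 311, 273, 249.9 and 298 CPM in the other microglia, with no overlap (log2 fold change -2.00, SE 0.15, adjusted p = 1.57e-08). Crybb1, a crystallin gene enriched in microglia, stood at 135, 219, 86 and 66.3 CPM in the gated barcodes and 551, 520.3, 514 and 479 CPM in the other microglia, with no overlap (log2 fold change -1.87). P2ry13, a purinergic receptor related to P2ry12, stood at 207, 79.6, 134 and 130.1 CPM in the gated barcodes and 578, 481, 379.9 and 444 CPM in the other microglia, with no overlap (log2 fold change -1.58). Adgrg1, an adhesion receptor (-1.48), fell as well. When single libraries were left out, 18 of the 23 kept their call in each fit, and Bin1, Cst3, Fcrls, Olfml3 and Sall3 lost it in at least 1.

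Antigen presentation, interferon and glycolysis genes were also higher in gated barcodes. Among all genes tested, 13.2% were higher in the 356 and 17.8% in the 392. Of 7 tested MHC class II genes, which present peptides to CD4 T cells, 6 rose in the 356 (median log2 fold change 1.74), and 4 in the 392. Cd74, the chaperone of class II molecules, stood at 458, 10519.5, 647 and 932 CPM in the gated barcodes and 86.2, 2535, 105 and 230.5 CPM in the other microglia, so that the other microglia of young tumour lay above the gated barcodes of each other library (log2 fold change 2.54, SE 0.15, adjusted p = 8.49e-10). Of 15 MHC class I genes 13 rose in the 356 (median 1.02) and 5 in the 392. Of the 13, 10 kept their call without any 1 library, as did 5 of the 6 class II genes. H2-D1, a classical class I gene, stood at 1272, 4353, 1698 and 2034 CPM in the gated barcodes and 518, 1454, 899 and 969 CPM in the other microglia (log2 fold change 1.48). Of 26 genes induced by interferon 22 rose in the 356 (median 1.41) and 15 in the 392. Ifitm3, which blocks virus entry, was at 386, 1202, 208 and 353 CPM in the gated barcodes and 46.3, 272, 90.6 and 129 CPM in the other microglia (log2 fold change 2.19). Of the 22, 13 kept their call without any 1 library. Of those that lost it, Ifi44 was not tested without young tumour, Ifit1, Ifit3, Irf7, Oasl2, Rtp4 and Usp18 lost it without young tumour, and Ifit2 and Rsad2 without young sham or young tumour. Of 16 glycolysis genes 13 rose in the 356, 13 of 13 in each fit without 1 library, and 10 rose in the 392. Pkm, pyruvate kinase, stood at 399.9, 548, 629 and 569 CPM in the gated barcodes and 169, 191, 193 and 180.2 CPM in the other microglia, with no overlap (log2 fold change 1.82).

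Secreted signals rose in part. For comparison with the counts here, 13.2% of all genes tested were higher and 12.2% lower in the 356, and 17.8% and 12.9% in the 392. Of 20 tested cytokine and chemokine genes 15 rose and 1 fell in the 356 (median log2 fold change 1.81), and 11 rose and 1 fell in the 392. Of the 15, 12 kept their call without any 1 library. Cxcl16, a chemokine that also takes up oxidized lipids, stood at 328, 463, 341 and 309 CPM in the gated barcodes and 55.3, 122, 87.7 and 81.3 CPM in the other microglia, with no overlap (log2 fold change 2.34). Tnf, the inflammatory cytokine, stood at 804, 58.6, 1498 and 314 CPM in the gated barcodes and 49.9, 25.6, 546 and 122 CPM in the other microglia, and was higher in gated barcodes in each library although the classes overlapped (log2 fold change 2.23). Il1a, another inflammatory cytokine, did not pass, at 265, 60.4, 783 and 169 CPM in the gated barcodes and 166, 75.9, 798 and 222 CPM in the other microglia (log2 fold change 0.21, SE 0.14, adjusted p = 0.29). Cxcl9, a chemokine induced by interferon gamma, rested on few barcodes: 1 held 100% of its old sham UMIs and none held it in young sham. Of 26 immediate early genes, whose transcription is switched on quickly by stimulation or by tissue dissociation, 6 rose and 7 fell in the 356 (median -0.16) and 4 rose and 8 fell in the 392. Of 17 cell cycle genes 13 rose in the 356, with a median of 1.99, and 2 of 18 in the 392. Thinned to 2000 UMIs none of 6 passed and the median was -0.54, against -0.65 over all genes tested in that fit. Top2a, which untangles DNA in dividing cells, was held by 0, 11, 3 and 3 gated barcodes, and 1 barcode held 89.5% of its UMIs in old sham and in old tumour.

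**Figure D4:**
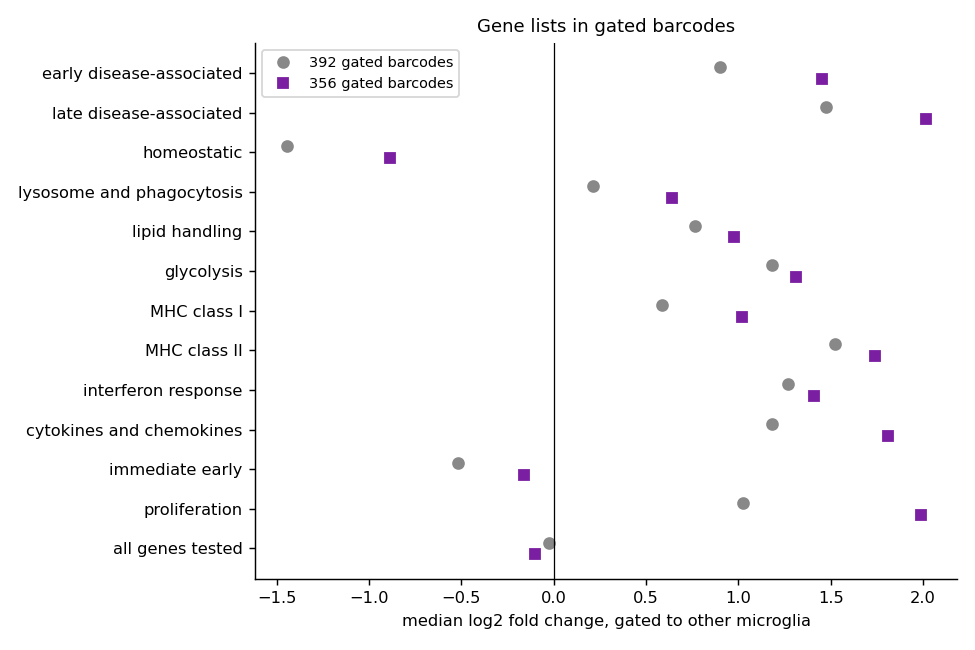
Points are the median log2 fold change of each gene list, gated barcodes against other microglia (x axis), in the fit of all 392 barcodes (grey circles) and of the 356 (purple squares). The late disease-associated list is at 2.01 and the homeostatic list at -0.89 in the 356, with all genes tested near 0.

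Genes outside these lists were taken by the size of the change. Ptgs2, the inducible cyclooxygenase, stood at 130.3, 13.7, 56.5 and 63 CPM in the gated barcodes and 0.995, 2.45, 4.98 and 2.77 CPM in the other microglia (log2 fold change 4.55). Cybb, the catalytic subunit of the phagocyte oxidase, stood at 130.3, 258, 219 and 192 CPM in the gated barcodes and 4.48, 59.7, 9.47 and 13.3 CPM in the other microglia (log2 fold change 3.9). Cxcl14, a chemokine (3.88), Slc7a11, the cystine-glutamate exchanger (3.50), Il4i1, an amino acid oxidase (3.40), Fam20c, a secretory pathway kinase that phosphorylates osteopontin (3.64), and the complement gene C3 (3.65) rose too. C3 stood at 18, 159, 13.5 and 13.7 CPM in the gated barcodes and 0.498, 14.1, 1.83 and 2.12 CPM in the other microglia, and 1 barcode held 54% of its young tumour UMIs. Fn1, the matrix protein fibronectin, rose by 3.73 in the 356 and by 5.69 in the 392, and stood at 40.4, 80.6, 49.1 and 101 CPM in the gated barcodes and 6.47, 9.89, 4.74 and 5.08 CPM in the other microglia. The fibroblast genes given above also stood higher in the 356 than in other microglia in 3 of 4 libraries, and their part in the rise of Fn1 was not tested. Among the genes that fell were Bank1, a signalling adaptor (-3.52), and Upk1b, a tetraspanin (-2.47), beside the neutrophil genes S100a9 (-4.47) and S100a8 (-3.17) and the choroid plexus genes Ttr (-2.31) and Enpp2 (-2.05).

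Markers of other cells were measured in the same sums. Among all genes tested in the 356, 13.2% were called higher and 12.2% lower. Counts of 1 or 2 called markers are therefore not read as a result. The 8 choroid plexus markers summed to 454, 599.6, 469 and 590.0 CPM in the 356 and 3502, 1459, 2850 and 6575 CPM in other microglia, and 7 of 8 fell and none rose. The 10 neutrophil markers summed to 166, 124, 129 and 145 CPM in the 356 and 323, 319, 302 and 565 CPM in other microglia, and 3 of 5 tested fell. The 10 monocyte markers summed to 481, 379, 55.3 and 122 CPM in the 356 and 38.3, 155, 25.3 and 50.1 CPM in the others; 3 of 9 tested rose, Fn1 among them. Of these 10 markers 1, 1, 6 and 2 were at 0 in the 356. The 10 border macrophage markers summed to 58.4, 434, 46.7 and 48.5 CPM in the 356 and 15.9, 156, 8.97 and 13.6 CPM in the others, with 6, 3, 5 and 6 at 0; the rule itself limits 3 of them. Dendritic cell markers summed to 535, 428, 554 and 500.3 CPM in the 356 and 1393, 1275, 1191 and 1217 CPM in other microglia, and 0 of 2 tested passed; the list holds Siglech of the rule. Lymphocyte markers summed to 207, 169, 158 and 162 CPM in the 356 and 273, 337, 260.1 and 275 CPM in other microglia, and 1 of 2 tested fell. Erythroid markers summed to 85.4, 28.4, 16 and 1.62 CPM in the 356 and 150.1, 287, 73.3 and 11.8 CPM in other microglia, and 4 of 4 tested fell. Neuron markers summed to 13.5, 11, 14.7 and 43.6 CPM in the 356 and 34.5, 62.7, 40 and 66.5 CPM in other microglia, and 1 of 7 tested fell. Oligodendrocyte markers summed to 189, 204, 237 and 217 CPM in the 356 and 219.5, 271, 348 and 317 CPM in other microglia, and 1 of 8 tested fell. Astrocyte markers summed to 193, 171, 147 and 240.1 CPM in the 356 and 331, 357, 251 and 304 CPM in other microglia, and 1 of 8 tested rose and 2 fell. Endothelial markers summed to 625, 613, 631 and 756 CPM in the 356 and 670.1, 621, 515 and 677 CPM in other microglia, and 2 of 9 tested rose and 1 fell. What these markers contributed to the results above was not tested.

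What the tumour on the other side went with was then described inside the gated cells. In young mice the gated barcodes of the tumour library held more MHC and interferon genes than those of the sham library. Of 6 MHC class II genes measured, 6 were past 1.5-fold higher in the 356 (median log2 ratio 5.23), of 14 class I genes 13 (1.79) and of 19 interferon genes 19 (1.82). Over all genes measured, 12.7% were past 1.5-fold higher and 29.4% lower. A gene was measured when it reached 50 CPM in 1 of the 2 libraries, so members low in young sham could enter through young tumour alone. The counts and medians of these lists partly follow from that filter, which applies to each comparison between libraries below. In the 392 the background was 17.3% higher and 41.3% lower, and the medians were 5.56, 2.59 and 2.65. The other microglia of the same libraries differed by similar medians for class II (4.91) and interferon (1.86) genes and by 0.88 for class I genes. H2-Aa, a class II chain, stood at 27, 3402, 77.4 and 197 CPM in the gated barcodes, a ratio of 126 (95% interval 57.9 to 344) of young tumour to young sham, and was found in 12.1%, 82.2%, 9.68% and 23.3% of the 356, where 1 barcode held 74.6% of its old sham UMIs. Irf7, the transcription factor that amplifies interferon responses, stood at 22.5, 172, 3.68 and 22.6 CPM, a ratio of 7.66 (95% interval 3.23 to 23.9). C4b, a complement component, was found in 61 of 101 young tumour barcodes and in 0 of 33 young sham barcodes, 4 of 93 old sham barcodes and 2 of 129 old tumour barcodes. Ccl8, a monocyte chemokine, was found in 0, 21, 0 and 1 gated barcodes. A count of 0 barcodes allows a share with a UMI of up to 9.09%, 2.97%, 3.23% and 2.33% in the 4 libraries, and the young sham values rest on 33 barcodes.

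In old mice the same lists had smaller medians between tumour and sham, over the members that passed the filter there. These were fewer than in young mice for class I and interferon genes. Of 6 class II genes 3 were past 1.5-fold higher with tumour in the 356 (median log2 ratio 0.61), of 12 class I genes 2 (0.31) and of 9 interferon genes 2 (0.35), with none past the fold lower and backgrounds of 4.38% higher and 10.4% lower (7.72% and 9.05% in the 392). H2-Aa was 2.55 (95% interval 1.93 to 3.42) times as high in old tumour as in old sham and Irf7 6.14 (95% interval 1.90 to 31.6) times, from 28 against 3 UMIs. Set against young tumour, the gated barcodes of old tumour held less of these genes: 6 of 6 class II (-3.74), 10 of 14 class I (-1.12) and 18 of 19 interferon genes (-1.54) were past 1.5-fold lower, against a background of 8.96% (8.3% in the 392). The other microglia had medians of -3.49, -0.60 and -0.41 in that comparison. There too a member could pass the filter through young tumour alone. Cxcl13, a B cell chemokine, was higher with tumour at both ages, at 0, 459, 49.1 and 205 CPM, with a ratio of 4.18 (95% interval 2.99 to 5.99) in old mice, but only 0, 15, 5 and 6 barcodes held it. Between old and young sham the class II median was 0.88 and the interferon median 0.17 in the 356 (1.40 and 1.31 in the 392). In the 356, 11.5% of genes were past 1.5-fold higher and 16.7% lower (19.7% and 34.3% in the 392).

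**Figure D5:**
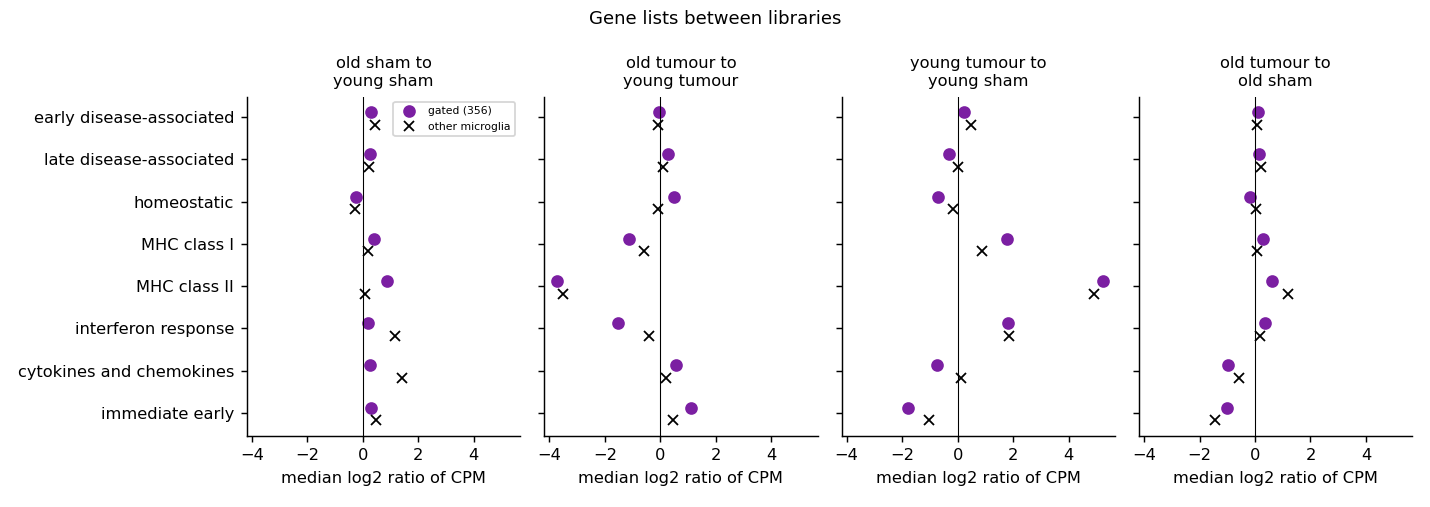
Points are the median log2 ratio of CPM of each gene list between libraries (x axis) in the 356 gated barcodes (purple) and in other microglia (crosses), in 4 panels, 1 per comparison. MHC class II lies at 5.23 in young tumour to young sham and at -3.74 in old tumour to young tumour, with the other microglia close to each.

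Immediate early genes and the inflammatory cytokine genes Tnf and Il1b were lower with tumour at both ages. Of 22 immediate early genes measured in the young comparison 21 were past 1.5-fold lower and none higher in the 356 (median log2 ratio -1.80, and -0.86 in the 392; other microglia -1.04). In the old comparison 19 of 23 were lower (-1.03, and -1.32 in the 392; other microglia -1.43). Tnf stood at 804, 58.6, 1498 and 314 CPM in the 356, 0.0728 (95% interval 0.0539 to 0.0974) times as high in young tumour as in young sham and 0.209 (95% interval 0.186 to 0.235) times in old mice. Il1b, another inflammatory cytokine, stood at 625, 155, 1320 and 229 CPM, with ratios of 0.248 (95% interval 0.197 to 0.312) and 0.173 (95% interval 0.151 to 0.198). Nr4a1, a nuclear receptor induced by stimulation, stood at 53.9, 9.15, 253 and 38.8 CPM, with ratios of 0.170 (95% interval 0.0657 to 0.429) and 0.153 (95% interval 0.110 to 0.211). Dusp2, a phosphatase that limits MAP kinases, stood at 157, 10.1, 352 and 53.3 CPM. All 4 genes were highest in old sham and lowest in young tumour. Tnf was also highest in old sham and lowest in young tumour in the other microglia, so for it this order is not particular to gated barcodes. The same held there for the summed lists. Immediate early genes summed to 27585.5, 14019, 38697 and 18346 CPM in other microglia at 1% or more. Cytokine and chemokine genes summed to 2785, 2468, 7890 and 3521 CPM in them. Il1a, Ier3 and the cytokine gene Tnfsf9 were higher in old than in young gated barcodes under either injection: Il1a by 2.96 (95% interval 2.26 to 3.93) times in sham and 2.80 (95% interval 2.11 to 3.75) times in tumour, Ier3 by 3.13 (95% interval 2.43 to 4.08) and 3.55 (95% interval 2.89 to 4.38) times, and Tnfsf9 by 6.01 (95% interval 2.85 to 15.2) and 4.71 (95% interval 2.29 to 10.9) times. The other microglia differed in the same direction for these 3 genes (Il1a 4.80 and 2.92 times). Naalad2, a peptidase gene, stood at 13.5, 4.58, 50.3 and 56.6 CPM, in 2, 5, 29 and 49 barcodes, and was 3.73 (95% interval 1.19 to 18.9) times as high in old as in young sham and 12.4 (95% interval 5.05 to 39.2) times in tumour. Of 3028 genes in the 356 that could be compared, 34 were past 1.5-fold higher with tumour at both ages and 151 lower at both, and 83 went past the fold in opposite directions. With age, 75 were higher under both injections, 41 lower and 116 opposite. In the 392, of 3609 genes, 36 were higher with tumour at both ages, 91 lower and 394 opposite, and 94 were higher with age, 31 lower and 692 opposite.

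Lists of the disease-associated state itself had medians from -0.31 to 0.29 between libraries in the 356. In them the late list had median log2 ratios of -0.31 (young tumour to young sham), 0.16 (old tumour to old sham), 0.24 (old to young sham) and 0.28 (old to young tumour). The early list had 0.24, 0.10, 0.29 and -0.05. In the 392 the late list had 0.98, 0.08, 1.42 and 0.16, and the early list 1.43, 0.02, 1.21 and -0.23, so the comparisons with young sham rested on which barcodes were kept. Medians over all genes in the 356 were -0.23, -0.08, -0.06 and 0.02. Genes of resting microglia were lower in young tumour than in young sham (14 of 24 past 1.5-fold, median -0.70, against a background of 29.4%). In the 392 that median was 0.70, of opposite sign. Single members did differ: Csf1 was 512 CPM in old sham and 71.4 in young tumour, and Cd9, a tetraspanin, was 3433, 1291, 2992 and 3345 CPM, lowest in young tumour.

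Within the 356, barcodes with 50% or more of their gate UMIs in Spp1 numbered 6, 14, 16 and 30 and were set beside the remaining 27, 87, 77 and 99 as a description, with no test. Of 3448 genes examined, 232 (6.73%) were higher in the Spp1-led barcodes in 4 of 4 libraries and 411 (11.9%) lower, and nothing is read from these counts. The genes named are among the largest differences. Fn1, the fibronectin gene, stood at 157, 322, 145 and 329 CPM in Spp1-led and 5.83, 32.9, 24.7 and 17.7 CPM in the remaining barcodes. Islr, a gene of stromal cells, stood at 431, 155, 6.05 and 235 CPM in Spp1-led barcodes and had no UMI in the remaining ones. Cxcl14, a chemokine, stood at 274, 49.9, 187 and 235 CPM against 23.3, 24.1, 47.8 and 135. The chemokine gene Cxcl10 stood at 0, 94.3, 72.6 and 72.3 CPM in Spp1-led barcodes against 227, 302, 229.6 and 221, and Ccl2, a monocyte chemokine, at 0, 111, 0 and 21.1 against 40.8, 309, 349.8 and 86.1. The Spp1-led barcodes were deeper, with median UMIs of 7415, 13295, 11155 and 10618 against 5519, 9784, 7749 and 8576. Whether RNA of the stromal kind found among the 36 barcodes was mixed into these Spp1-led barcodes was not tested.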

How the data were processed

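Counts were used as deposited: the matrices of the authors hold UMI counts for 32285 genes per barcode, not normalized. Per the submitters' processing notes these came from Cell Ranger 3.0.2 and Seurat 2.3.4 on mm10, whereas the file headers name Cell Ranger 6.1.0; this was not resolved. The annotation release is not given in the sources used here. The labels' strain entries are not the same in the 4 libraries and were not used; the design text names C57BL/6. Groups follow the labels. Barcodes needed 500 UMIs, 200 genes and at most 20% mitochondrial UMIs. Counts were summed per library and class and tested with edgeR 4.0.16 (TMM factors, low-count filter, quasi-likelihood, library block, 8 sums); DESeq2 1.42.0 was an alternative. In simulated counts of that comparison over 11352 genes, 79 of 100 genes set at a fold of 2 and 98 of 100 at a fold of 4 were called, with 6 of 11152 unchanged genes. The simulation used 1 dispersion (0.019) for all genes and no single barcode that holds most of a gene's UMIs. Its rates may not carry over to genes held by few barcodes. Between libraries, ratios of CPM carry exact conditional Poisson intervals; genes needed 50 CPM in 1 library and 20 UMIs over both, a count of 0 was replaced by 3 counts per library, and such a ratio is a bound. Shares carry exact Clopper-Pearson intervals. Doublets were scored with Scrublet (scanpy 1.11.5) and removed only as an alternative. No batch is named in the labels. Named genes were the gate and microglia genes, members of the lists, the 15 highest and 15 lowest of the fit with the same direction in 4 libraries and 50 CPM in the higher class, and, between libraries, the 8 highest and 8 lowest that moved alike under both contrasts of age or tumour and the 5 highest and lowest by the difference between ages; the text names a part of these. C4b, Top2a, Cd9 and the Spp1-led split were chosen after their values were seen. The members and lists were chosen with earlier results of these data known. Results for some single genes are not reported here. Promoter windows and gene names come from RefSeq and GENCODE mouse release 21.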

Additional observations from a re-analysis of the deposited data

Results flagged for a closer look

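These differences between ages or injections had opposite signs and were not tested, since each group was 1 library. Values are median log2 ratios or log2 ratios over the 392 gated barcodes. MHC class II genes had a median of 1.40 from young to old sham and of -3.30 from young to old tumour. Cell cycle genes had 2.82 for young tumour to young sham and -0.70 for old tumour to old sham, and 0.98 for old to young sham and -1.77 for old to young tumour. Of the 18 cell cycle genes 9 had no UMI in young sham (10 in the 356), and a ratio with a count of 0 is a bound. In young tumour they summed to 2318 CPM in the barcodes under 1% and to 847 CPM in the 356. Cxcl9, a chemokine induced by interferon gamma, had 6.70 for tumour to sham in young mice, with no young sham UMI in the 356, and -2.83 in old mice, where 1 barcode held 100% of its old sham UMIs. Ccn3, a secreted matrix protein, had -4.49 in young and 1.29 in old mice, in libraries where the 36 barcodes under 1% held 70.3% and 17.3% of the sham UMIs.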

How the results depend on the processing

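No paired analysis was possible because each group is 1 library; the library is already a block in the fit of gated against other barcodes. Values here are over the 392 gated barcodes. Of 54 alternative ratios of gated shares, 45 moved less than counting error. Thinning to 2000 UMIs gave 3.11 (old to young tumour), 1.86 (young tumour to sham) and 2.28 (old tumour to sham), and with a gate sum of 2 2.11 (old to young sham) and 1.72 (young tumour to sham). Thinning to 1000 UMIs gave 0.735 (old tumour to sham), and no ratio with young sham, which had no gated barcode left. At least 2 gate genes gave 5.21 (old to young sham), and no exclusions 1.07 (old to young tumour) and 4.30 (young tumour to sham). Counts of higher genes by edgeR were 50 thinned, 1181 at 5000 to 20000 UMIs and 1067 to 2213 when 1 library was left out (1407 without old sham, 1067 without old tumour). Lower genes were 121, 669 and 580 to 1733 (971 and 580). DESeq2 called 2063 and 1338, and 1359 and 684 in the 356. The late list median was 0.96 thinned and 2.01 in the 356; the homeostatic median -0.71 at 5000 to 20000 UMIs and -0.89 in the 356. Over all genes tested the median was -0.65 thinned and -0.03 in the 392. Thinning reversed the sign of the lipid (-0.10) and cell cycle (-0.54) medians, both of which stayed above that thinned median. It also reversed Ptgds (-2.67), Soat1 (-0.25) and Tapbp (-1.18), and 5000 to 20000 UMIs reversed Pfkp (-0.14). The cause was not tested; thinning also left fewer barcodes.

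Genes past 1.5-fold between libraries, higher then lower, were as follows. For old to young sham they numbered 348 and 504 in the 356, 95 and 40 thinned, 233 and 249 at 200 CPM, with 339 higher by the mean of each barcode's CPM. For old to young tumour they numbered 321 (higher, 356), 124 and 61 thinned, and 100 and 78 at 200 CPM. For young tumour to sham they numbered 380 and 878 in the 356, 101 and 47 thinned, 984 and 978 centred on the median gene, 221 and 284 at 200 CPM, with 352 higher by mean CPM. For old tumour to sham they numbered 122 (higher, 356), 407 (higher, gate sum of 6), 82 and 76 thinned, and 44 and 65 at 200 CPM. List medians reversed for young tumour to sham: the late list in the 356 (-0.31), the homeostatic list in the 356 (-0.70), thinned (-0.25) and by mean CPM (-0.43), and cytokines in the 356 (-0.74), thinned (-2.68) and by mean CPM (-0.34). For old to young sham the homeostatic list reversed in the 356 (-0.25), and cytokines (-0.54) and immediate early genes (-0.27) thinned.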
